A study of Drosophila melanogaster with 2 samples.

Results

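The Wingless and Hedgehog pathway genes examined here are 10 genes listed by name. The list was drawn up with earlier results of these data known, and its rule uses no measured value. Of these, 6 belong to the Wingless pathway (wg, fz, fz2, arr, arm and nkd) and 4 to the Hedgehog pathway (hh, ptc, smo and ci). They were 10 of 13945 protein-coding genes on the 6 chromosome arms. Binding of Lola was mapped by ChIP-seq (immunoprecipitation of chromatin followed by sequencing) in whole embryos collected from 0 to 12 h, both sexes together. The strain, lola-J-GFP, carries a transgene in which the J form of the transcription factor Lola (Lola-RJ) ends in GFP. The precipitation used an antibody against GFP, although the antibody field names lola. Replicates 1 and 3 of this single group each gave a list of 30000 peaks, both together gave a pooled list of 30000, and thresholding by IDR (irreproducible discovery rate) gave 6154. No other genotype or stage is compared, and whole embryos mix all cell types. The labels do not say whether untagged Lola is still made.

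Wingless (Wnt) and Hedgehog are secreted signals that keep the boundaries of each embryonic segment by maintaining one another in adjacent rows of cells. Wingless binds Frizzled receptors and the co-receptor Arrow, after which Armadillo (beta-catenin) is no longer degraded and enters the nucleus to work with the DNA-binding protein Pangolin. Hedgehog binds Patched, which then ceases to hold Smoothened in check, and the zinc-finger protein Cubitus interruptus becomes an activator of target genes. Several of these genes are themselves targets of their pathway. Patched is induced by Hedgehog, and Naked cuticle is induced by Wingless and dampens it.

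Lola-J-GFP summits in the introns and upstream DNA of these genes mostly lay in DNA rich in A and T. The sequences below run from 50 bp before to 50 bp after the strongest summits of fz, fz2 and nkd and the strongest summits upstream of wg and hh. They read 5′ to 3′ on the plus strand of dm6, and capitals mark unbroken runs of 8 or more A or T.
fz, intron, chr3L:14304010-14304110: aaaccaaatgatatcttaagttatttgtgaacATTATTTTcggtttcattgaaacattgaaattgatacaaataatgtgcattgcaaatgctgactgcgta
fz, upstream, chr3L:14272539-14272639: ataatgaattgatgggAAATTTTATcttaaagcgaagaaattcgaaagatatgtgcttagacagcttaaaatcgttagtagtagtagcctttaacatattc
fz2, intron, chr3L:19163088-19163188: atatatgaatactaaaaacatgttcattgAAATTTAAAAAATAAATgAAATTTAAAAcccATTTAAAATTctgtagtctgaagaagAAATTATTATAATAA
nkd, intron near the start site, chr3L:19042627-19042727: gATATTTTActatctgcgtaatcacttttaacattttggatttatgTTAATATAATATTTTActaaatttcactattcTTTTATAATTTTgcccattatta
nkd, promoter, chr3L:19045611-19045711: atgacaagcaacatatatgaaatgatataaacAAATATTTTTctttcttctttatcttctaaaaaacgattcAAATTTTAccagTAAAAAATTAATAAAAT
nkd, intron further in, chr3L:19033277-19033377: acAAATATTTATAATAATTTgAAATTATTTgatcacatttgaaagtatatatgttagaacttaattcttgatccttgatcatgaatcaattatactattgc
wg, far upstream, chr2L:7296073-7296173: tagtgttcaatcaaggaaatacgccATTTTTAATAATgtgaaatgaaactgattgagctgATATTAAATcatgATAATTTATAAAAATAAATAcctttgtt
hh, far upstream, chr3R:23149167-23149267: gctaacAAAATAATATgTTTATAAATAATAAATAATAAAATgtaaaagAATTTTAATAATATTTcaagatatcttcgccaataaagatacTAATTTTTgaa
A and T made up 71.3% and 70.3% of the fz windows, 83.2% of the fz2 window and 80.2%, 81.2% and 79.2% of the nkd windows in the order shown. The far upstream windows reached 76.2% at wg and 84.2% at hh, with runs of up to 20 and 24 bases. Weaker summits at promoters follow, none of which passed the IDR threshold.
wg, promoter, chr2L:7306947-7307047: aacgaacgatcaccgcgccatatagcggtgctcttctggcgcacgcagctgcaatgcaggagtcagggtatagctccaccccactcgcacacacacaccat
hh, promoter, chr3R:23142013-23142113: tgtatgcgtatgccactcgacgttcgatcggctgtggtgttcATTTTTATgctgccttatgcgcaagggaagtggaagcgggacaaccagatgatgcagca
arm, promoter, chrX:1900262-1900362: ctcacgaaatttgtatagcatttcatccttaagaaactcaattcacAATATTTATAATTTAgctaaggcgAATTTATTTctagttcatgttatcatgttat
These windows held 41.6% A and T at wg, 48.5% at hh and 73.3% at arm. The first of them had no run of 8. Passing the threshold did not always go with A and T. The IDR-thresholded summits within the wg and hh genes held 68.3% and 49.5%, also without a run of 8. The far upstream windows shown for wg and hh lie more than 2 kb from those genes.

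The 10 genes differed in the number and place of their summits far more than in whether they had any. A summit is the single base that the deposited offset marks within a peak, and it need not be the centre. Signal is the strength that the authors' peak caller assigned, on a scale that no source used here gives. Ranks count from the strongest peak of a list. A locus is the gene with 2 kb added at both ends. An IDR-thresholded summit lay in the locus of 9 of the 10 genes, and of 38.2% of all coding genes. A summit within 500 bp of a start site (TSS) was found at 3 of the 10, namely fz, nkd and arr, beside 22.9% of all coding genes. The loci held 48 summits in all. Of these, 13 lay at fz, 12 at fz2, 8 at nkd, 6 at arr and 5 at ptc, and wg, hh, smo and arm had 1 each. The ci locus had none.

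**Figure D1:**
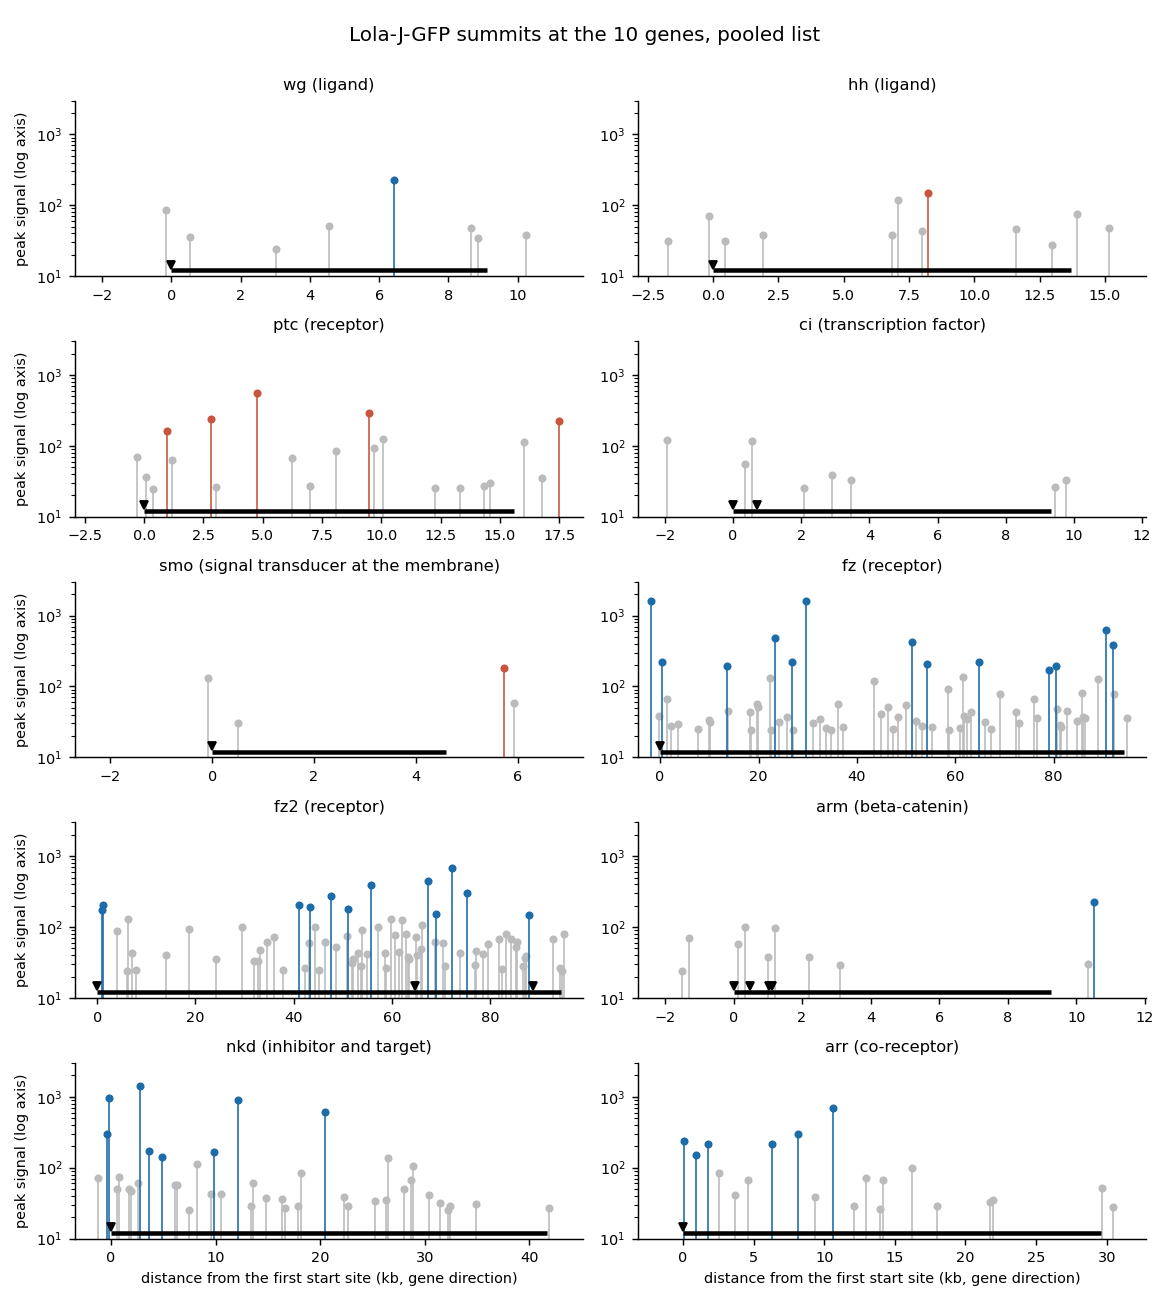
Summits of the pooled list at each gene, by distance from its first start site in kb (horizontal) and peak signal (vertical, log axis). Coloured stems are IDR-thresholded summits (blue Wingless, red Hedgehog), grey stems the other pooled summits, black bars the gene span and triangles its start sites; fz and nkd hold stems above 1000, while ci has grey stems only.

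The Wingless ligand gene had its strong sites far from its promoter. The wg gene (chr2L:7307159-7316265, plus strand) held 1 IDR-thresholded summit, in intron 3, 6440 bp into the gene. It had a signal of 228.4 and ranked 3666 in the IDR list, 5190 in replicate 1 and 2933 in replicate 3. At the wg promoter the strongest pooled summit stood 162 bp upstream and ranked only 9750, with rank 7898 in replicate 1 and 16824 in replicate 3. The promoter was thus weak in both replicates and weaker in replicate 3. Outside the locus, the gap between wg and Wnt4, a neighbouring gene for another Wnt ligand, held 8 further summits. The strongest lay 11036 bp upstream of wg (signal 1043, rank 412) and ranked 425 and 431 in replicates 1 and 3. Others stood 13.5, 13.3, 12.0, 8.19 and 4.26 kb upstream of wg, with signals of 486.1, 163.2, 473.7, 239.2 and 251.0, and the last pair, 25.5 and 29.4 kb away, was nearer to Wnt4. The peak at 13.3 kb lay inside the interval of the peak at 13.5 kb. It had no counterpart within 100 bp in replicate 3. Counting DNA up to the neighbouring genes was a choice made after the values were seen.

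The Hedgehog ligand gene showed a similar arrangement. The hh gene (chr3R:23128169-23141906, minus strand) held 1 IDR-thresholded summit, in intron 1, 8211 bp from its TSS and 5714 bp from that of CG31457 (signal 148.7, rank 5819). It ranked 5530 in replicate 1 and 10928 in replicate 3, so replicate 3 alone would not have placed it among its 6154 strongest peaks. A neighbouring intronic summit, 7061 bp from the TSS, fell outside the threshold at rank 7175. The strongest promoter summit, 157 bp upstream, ranked 11786 in the pooled list. In replicate 1 the strongest promoter summit ranked 10187, 110 bp upstream. That of replicate 3 ranked 16260 and lay 422 bp downstream, on the other side of the TSS, so it was no counterpart of the pooled summit. A stronger summit stood 7311 bp upstream, beyond the 2 kb flank (signal 544.4, rank 1241), and ranked 1476 and 1084 in the replicates. A second upstream summit, at 5940 bp, had a signal of 142.6 and rank 6045.

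The frizzled receptor genes carried the most summits by locus, although 8 of the 13 at fz were nearer to the TSS of another gene (CG13482 or CG13481), 1 of them 726 bp from that of CG13482. Counting only summits nearest to their own TSS left 5 at fz, beside 12 at fz2 and 8 at nkd. The fz gene (chr3L:14274343-14368639, 94.3 kb, plus strand) encodes a Wingless receptor that also sets planar cell polarity. Its strongest summit lay 29.7 kb into the gene, in intron 1 (signal 1619, rank 156). Another of nearly equal strength stood 1754 bp upstream of the TSS (signal 1616, rank 158). Ranks of the former were 137 in replicate 1 and 168 in replicate 3, and of the latter 155 and 169, so both were among the first 200 peaks in each library. Next in strength were summits in intron 4, 90.6 kb from the TSS (signal 631.2, rank 1006), in intron 1 at 23.3 kb (signal 476.8, rank 1510) and in intron 4 at 51.1 kb (signal 430.3, rank 1731). The remaining 8 had signals of 168.3 to 384.9. Only 1 of the 13 counted as a promoter summit, in the 5′ UTR 476 bp downstream of the TSS (signal 223.3, rank 3759), and it is lost with a promoter window of 250 bp.

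The fz2 gene, for a second Wingless receptor, is almost as long (chr3L:19140975-19235373, 94.4 kb, minus strand) and held 12 summits, all in introns. The strongest (signal 672.3, rank 900) lay 7510 bp downstream of the middle of its 3 start sites and ranked 824 and 935 in the replicates. It was followed by summits 2491 bp downstream of that TSS (signal 444.7, rank 1657) and 8952 bp upstream of it (signal 397.6, rank 1928). The other 9 had signals of 149.5 to 302.8. They were unevenly spread, with the longest empty stretch at 39.9 kb and the closest summits 214 bp apart. None lay within 500 bp of a TSS, and the strongest pooled promoter summit, 52 bp downstream, ranked 11312. The strongest promoter summit of each replicate ranked 15783 in replicate 1, 191 bp downstream, and 11377 in replicate 3, 102 bp downstream. With a window of 1000 bp a summit 656 bp upstream of a TSS (signal 149.5) would count as its promoter.

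The co-receptor gene arr, the fly counterpart of LRP5 and LRP6, had its 6 summits in the 5′ part of the gene (29.6 kb). The strongest (signal 688.0, rank 866) lay in intron 2, 10.6 kb from the TSS, and ranked 805 in replicate 1 and 938 in replicate 3. A promoter summit stood 81 bp downstream of the TSS (signal 235.1, rank 3565) and ranked 3027 and 5017 in the replicates. A summit 6280 bp into the gene (signal 215.6) was also 393 bp upstream of the TSS of CG43192, which lies within arr. The others had signals of 301.9, 218.8 and 149.0.

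Among the Hedgehog receptor and transducer genes, ptc was bound in its introns and smo only at its neighbour. The ptc gene (15.6 kb), which encodes the Hedgehog receptor, held 4 summits in intron 1 and a further one 956 bp past the start of the next gene, Acsl. The strongest (signal 554.6, rank 1211) lay 4758 bp from the TSS, and the replicates placed it differently, at rank 720 in replicate 1 and 2313 in replicate 3. The others in the intron, at 982, 2805 and 9485 bp, had signals of 163.6, 242.6 and 293.2. No ptc promoter summit passed, the strongest in the pooled list being at rank 11677, 298 bp upstream. The 17.7 kb gap upstream, also counted after the values were seen, held 6 more summits. Those 17.2, 15.0 and 14.8 kb upstream of ptc were nearer to the TSS of the neighbouring gene CG8635. The strongest of the 6 lay 5249 bp upstream of ptc (signal 828.3, rank 650) and ranked 714 and 539 in the replicates. It exceeded every summit within the locus.

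The smo gene (chr2L:277582-282167, plus strand) encodes the transducer that Patched restrains. Its only IDR-thresholded summit (signal 184.0, rank 4675) lay beyond its 3′ end, 43 bp upstream of the TSS of CG11601. At its own promoter a summit 85 bp upstream ranked 6659 in the pooled list (signal 129.5), just outside the threshold. It also lay in the annotated 5′ UTR of an overlapping gene, CG17078. That site ranked 5857 in replicate 1 and 8179 in replicate 3, so it would count with replicate 1 alone.

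The downstream effector genes had no IDR-thresholded summit at their own promoters or within their spans. The arm gene (chrX:1891401-1900646, minus strand) encodes beta-catenin and has 4 start sites. Its single IDR-thresholded summit (signal 226.4, rank 3700) lay past the 3′ end of the gene, 139 bp upstream of mRpL16, a mitochondrial ribosomal protein gene, and 167 bp upstream of trr, a histone methyltransferase gene. At the arm start sites the strongest pooled summit, 139 bp upstream of one of them, ranked 8478. For ci (chr4:47710-57041, minus strand), the transcription factor of the Hedgehog pathway, the best pooled summits of the locus ranked 7168, 1928 bp upstream, and 7374, 145 bp upstream of the inner of its 2 start sites. The former ranked 5658 in replicate 1 and 9208 in replicate 3, so replicate 1 alone would give ci a summit. An IDR-thresholded summit (signal 222.1, rank 3775) stood 3358 bp upstream, outside the locus. It ranked 3521 in replicate 1 and had no counterpart within 100 bp in replicate 3.

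The Wingless inhibitor and target nkd combined a strong promoter with strong intronic sites. The gene (chr3L:19003741-19045449, 41.7 kb, minus strand) held 8 summits. The strongest lay in intron 1, 2772 bp from the TSS (signal 1417, rank 220) and ranked 232 in replicate 1 and 207 in replicate 3. At the promoter a summit 212 bp upstream of the TSS (signal 947.7, rank 494) ranked 434 and 623, and a weaker one, in an overlapping interval 414 bp upstream (signal 294.9, rank 2768), ranked 2703 and 3909. Further summits in intron 1 stood 12.1 kb (signal 906.5, rank 545) and 20.4 kb (signal 604.6, rank 1077) from the TSS. The other 3, at 3585, 4907 and 9802 bp, were weak, with signals of 143.0 to 172.6. Among the 10 genes, nkd alone had a promoter summit among the 3077 strongest IDR-thresholded peaks.

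**Figure D2:**
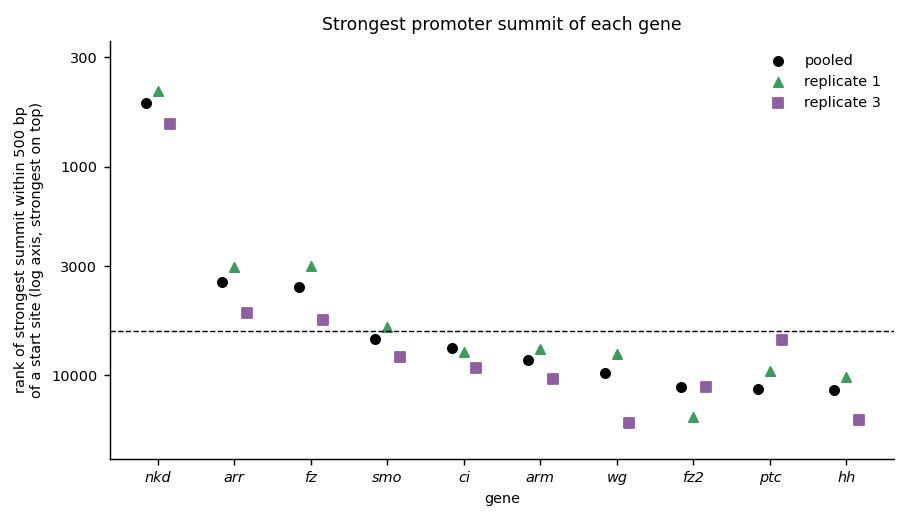
Rank of the strongest summit within 500 bp of a start site of each gene (vertical, log axis, strongest on top) in the pooled list and in each replicate; the dashed line marks rank 6154. In the pooled list nkd, arr and fz lie above the line, at 494, 3565 and 3759, and smo is the nearest below it, at 6659.

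In the full lists, which run on to far weaker peaks, every one of the 10 genes had a promoter summit. This held in the pooled list, where 49.9% of all coding genes had one, in replicate 1 (50.6%) and in replicate 3 (51.0%). All 10 also had a summit in the locus in these lists, beside 64.7%, 65.4% and 69.6% of all coding genes. The 7 promoters outside the IDR set had pooled ranks of 6659 (smo), 7374 (ci), 8478 (arm), 9750 (wg), 11312 (fz2), 11677 (ptc) and 11786 (hh). At some of these weak sites the replicates placed the strongest summit apart. At ptc the strongest promoter summit was 132 bp downstream of the TSS in replicate 1 (rank 9551) and 312 bp upstream in replicate 3 (rank 6804).

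Gene length went with the counts. The 5 genes with 5 or more summits were also the 5 longest, at 15.6 to 94.4 kb, whereas wg, hh, smo, ci and arm spanned 4.59 to 13.7 kb. Among the 80 coding genes within 20% of the length of fz, the median was 2 summits, and 1 had as many as fz or more. For fz2, 4 of 80 did. The numbers were 11 of 274 for nkd, 21 of 326 for arr and 24 of 517 for ptc, with medians of 1 summit each. For the genes with a single summit, 46.3% (smo) to 55.6% (hh) of genes of like length had as many or more. The genes sbb, a corepressor gene, and shn, of the Dpp pathway, were the only coding genes with at least 13 summits in a span no longer than that of fz, with 14 each in 79.1 and 58.3 kb. Per 10 kb of locus the densest member was ptc (2.55 summits), ahead of arr (1.79), nkd (1.75), fz (1.32) and fz2 (1.22), and hh was the sparsest of the bound genes (0.564). These densities count every summit of a locus, among them the ptc summit past the start of Acsl. Densities of other coding genes are not given here.

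**Figure D3:**
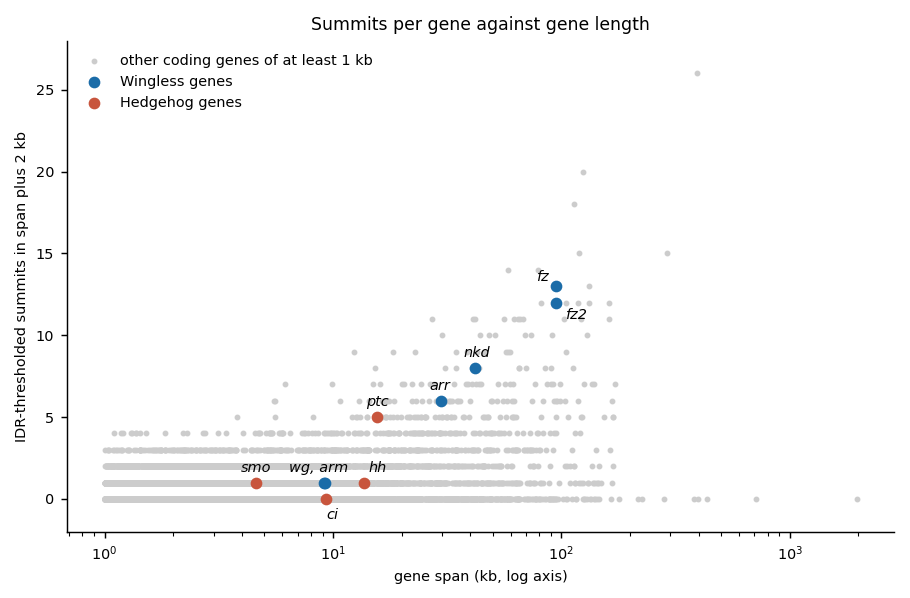
Number of IDR-thresholded summits in the span plus 2 kb (vertical) against gene span in kb (horizontal, log axis) for coding genes of at least 1 kb (grey) and the 10 genes (blue Wingless, red Hedgehog). The points for fz and fz2, at 13 and 12 summits, lie above most genes of their length, and ci lies at 0.

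Most of the 48 summits were intronic. Introns held 40 (83.3%), promoters of any coding gene 7 (14.6%) and intergenic DNA 1, whereas of all 6154 IDR-thresholded summits 35.5% were in introns, 40.4% at promoters and 20.6% intergenic. The locus rule itself favours DNA within genes, since it takes whole spans and only 2 kb outside them. Of the 7 promoter summits, 4 were at the promoters of fz, nkd (2) and arr, and 3 at those of other genes near smo, arm and arr. First introns held 22 of the 40 intronic summits (55.0%), a smaller share than the 67.9% of intronic summits genome-wide (1482 of 2182). The share differed by gene, at 36.4% for fz, 41.7% for fz2 and 25.0% for arr, but 100% for nkd and the Hedgehog genes. The single wg summit lay in intron 3. With fz, fz2 and nkd set aside, the share was 63.6%. The ptc summit past the start of Acsl is counted among the 22. The first 1000 peaks of the list held 7 summits (14.6%), beside 16.2% of all, and the median signal was 225.6, beside 268.4.

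Replicate support for these sites was like that of the list as a whole. Of the 48 summits, 46 (95.8%) had a summit within 100 bp in both full replicate lists, and of all IDR-thresholded summits 92.7% did. Among the 6154 strongest peaks of each replicate, 37 (77.1%) were found in both, beside 71.3% of all. Both replicates entered the peak call, which partly fixes these shares. The exceptions were a fz2 summit 4206 bp downstream of a TSS (signal 155.2), which had no counterpart in replicate 1, and the nkd summit at 9802 bp (signal 165.7), which had none in replicate 3. Ranks in the replicates differed by at most 2 times for 39 of the 46 (84.8%), beside 84.7% of all. Besides the strongest ptc summit, the other 6 lay at ptc, fz and fz2. At fz a summit in intron 4 at 92.0 kb ranked 1075 in replicate 1 and 4615 in replicate 3, and another at 64.7 kb ranked 6755 and 2452.

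**Figure D4:**
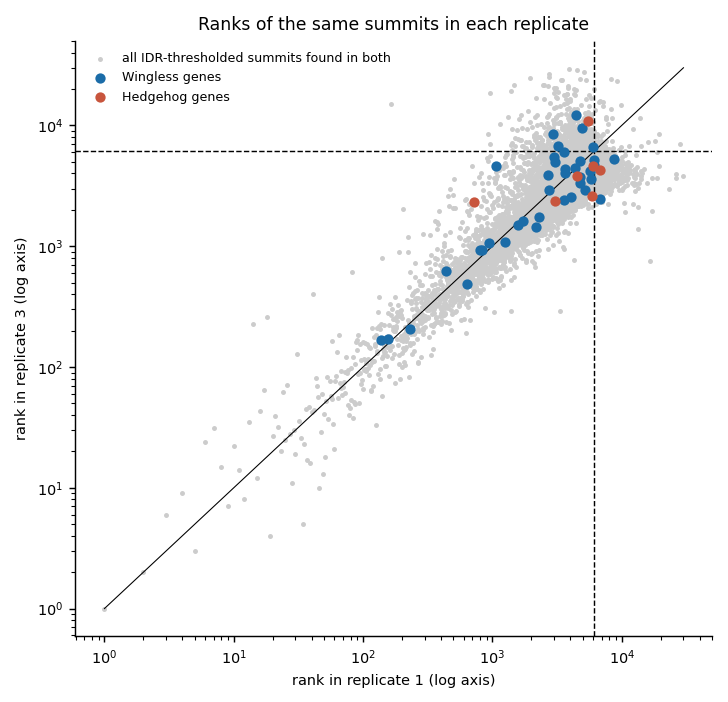
Rank of each IDR-thresholded summit in replicate 1 (horizontal) and replicate 3 (vertical), both on log axes, for all summits found in both lists (grey) and those of the 10 genes (blue Wingless, red Hedgehog). The solid line marks equal rank and dashed lines rank 6154; the strongest fz and nkd summits lie close to equal rank and the scatter widens among weaker ones.

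The A and T content of the bound DNA was near that of Lola-J-GFP sites in general. Over the 48 summits the windows of 50 bp on either side held a median of 71.3% A or T, the same as over all 6154, with a range of 49.5% to 83.2%. Windows 1 kb away had medians of 57.9% for the 48 and 57.4% for all, and 41 of the 48 summits (85.4%) exceeded their own surroundings, beside 86.1% of all. A run of 8 or more A or T was present at 43 (89.6%, beside 84.1%). The 41 Wingless summits had a median of 71.3% and such runs at 92.7%. For the 7 Hedgehog summits the values were lower, at 63.4% and 71.4%. The hh intronic summit had the lowest content (49.5%), and its surroundings were at 48.5%. The 7 promoter summits outside the IDR set held 41.6% at wg, 48.5% at hh and fz2, 56.4% at ci, 58.4% at smo, 65.3% at ptc and 73.3% at arm, and the 3 within it 58.4% at arr, 69.3% at fz and 81.2% at nkd. Over all promoter summits ranked 6155 to 12308 in the pooled list, the median was 61.4%, beside 71.3% for the IDR-thresholded promoter summits. The part of base content in which promoters passed the threshold was not tested.

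**Figure D5:**
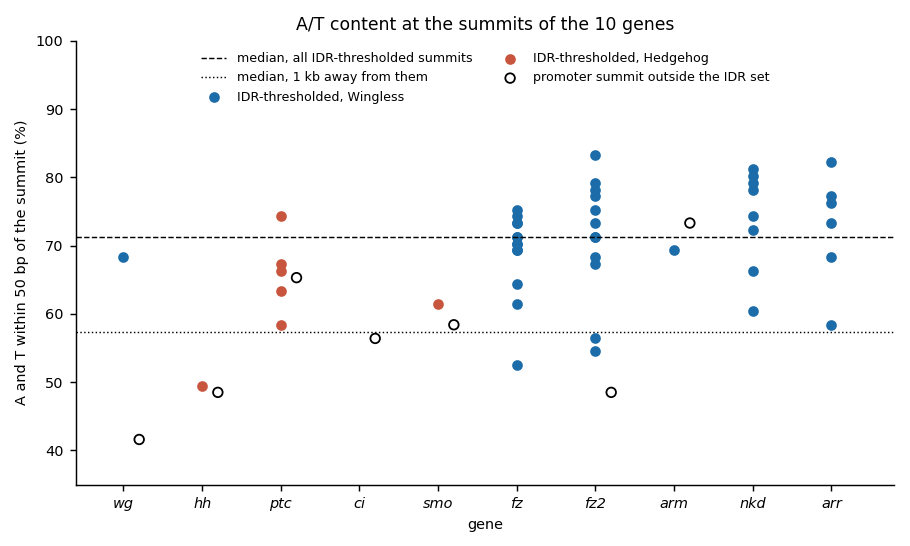
Percent A and T within 50 bp of each summit (vertical) for the IDR-thresholded summits of the 10 genes (blue Wingless, red Hedgehog) and for their strongest promoter summit where it lay outside the IDR set (open circles). Dashed and dotted lines are the medians of all IDR-thresholded summits (71.3%) and of DNA 1 kb from them (57.4%); the wg promoter is the lowest point, at 41.6%.

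Among 53 other genes of the pathways, 16 (30.2%) had a promoter summit and 35 (66.0%) a summit in the locus, beside the 22.9% and 38.2% of all coding genes given above. These genes spanned 1.15 kb (wntD) to 75.1 kb (nmo), and the shares were not matched for gene length. With the nearest TSS required, 28 of the 53 kept a locus summit. The 33 Wingless genes had 12 and 22, and the 26 Hedgehog genes 7 and 17, with 6 genes in both lists. The strongest promoter summit of each of the 16 lay upstream of the TSS. The share over all coding genes is not given here, so this cannot be read as particular to these genes. Nuclear factors of the Wingless pathway had promoter summits in 5 of 7 cases. These were gro (signal 961.4, 135 bp upstream), a corepressor gene, nej (352.1), for a histone acetyltransferase, lgs (178.9), for an Armadillo partner, pan (140.7), for the DNA-binding protein of the pathway, and CtBP (163.5), for another corepressor, whose summit was nearer to the TSS of CG8031. The cytoplasmic genes did so in 4 of 8 cases, with gish, a casein kinase gene, far ahead (signal 3031, rank 16, 172 bp upstream). Next came sgg, for the kinase that marks Armadillo for degradation (signal 1155, 205 bp upstream), and the destruction-complex genes Apc2 (390.1) and Apc (237.4).

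Receptor genes of the Wingless list had no promoter summit in 6 cases, but 4 of the 6 had a summit in the locus, as fz2 did. Of the other ligand genes only Wnt6, downstream of wg, had a promoter summit (signal 593.4, 442 bp upstream). Among the genes for proteins outside the cell, dlp, a glypican gene that acts on both signals, had a promoter summit (593.5) and a stronger one in intron 1 (signal 1488, rank 196), and sfl, for an enzyme that sulfates heparan chains, had a weak one (179.3). The Hedgehog genes with a promoter summit outside both lists' overlap were rdx, which targets Ci for degradation (875.8), the heparan sulfate polymerase genes sotv (442.8) and ttv (184.2), and the kinase gene fu (185.9), whose summit was nearer to the TSS of CG6659. Requiring the nearest TSS left 14 of the 16 genes. None of the 4 secretion genes of the lists (por, wls, rasp and disp) had a summit in the locus. The strongest summit in a locus of the Hedgehog list, at Gprk2 (signal 2515, rank 42), was nearest to the TSS of PNPase, 582 bp upstream of Gprk2. A strong nej summit (1112) lay 673 bp upstream of its TSS.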

How the data were processed

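Peaks of Lola-J-GFP ChIP-seq from 2 biological replicates (1 group) were taken in the deposited form (dm6). Per the submitters' file records, lists were called from each replicate and from both pooled, each with a control alignment, and a last list was thresholded by IDR. Its 6154 peaks were the 6154 strongest of the pooled list. Aligner, peak caller and versions are not given in the sources used here. Sequencing depth is unknown. Peaks were ranked and described, within each list alone, by the deposited signal. The deposited −log10 q value was not used for ranking. The summit was the start plus the deposited offset, counted from 1.

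Gene models were Ensembl release 115 (BDGP6.54, the dm6 sequence) and bases came from the NCBI RefSeq copy of that assembly. TSSs were those of coding transcripts. Promoters were 500 bp on either side of a TSS, loci the span plus 2 kb, and replicate matches the strongest summit within 100 bp. Summit classes were taken in the order promoter, UTRs, coding exon, intron, other transcribed and intergenic. Counting was checked on planted summits. Python 3.11.15, numpy 2.4.6 and matplotlib 3.10.9 were used.

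No test was run: 1 group allows no comparison of conditions, and the counts of the main settings stand beside those over all coding genes. The members and gene lists were chosen with earlier results of these data known. Named were all 10 members with their summits, other pathway genes with a promoter summit, the 5 of each pathway with the strongest summit in the locus, neighbours at whose promoter a summit lay, and genes with as many summits as fz in no longer a span. Summits in the gaps to neighbouring genes, and the receptor, secretion and Wnt genes named beside them, were added after the values were seen.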

Additional observations from a re-analysis of the deposited data

How the results depend on the processing

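Counts were repeated under other settings. Except for the full pooled list, shares of all coding genes under these settings are not given. Whether the 10 genes shifted more than coding genes in general therefore cannot be read from these counts. With the stronger 3077 peaks alone, 1 of the 10 genes had a promoter summit, 5 had one in the locus and the loci held 20 summits, and 9 of the other 53 genes had a promoter summit. With all pooled peaks the numbers were 10 genes at the promoter, 269 summits and 45 other genes at the promoter, beside 49.9% of all coding genes. A promoter window of 1000 bp gave 5 of the 10 genes, adding ptc and fz2. With the gene span alone, 23 of the other genes, in place of 35, had a summit. Using 1 replicate alone gave 3 to 4 genes with a promoter summit, 8 to 10 with a locus summit, 49 to 50 summits, and 14 to 16 and 35 to 36 of the other genes at promoters and loci. Without replicate 3, smo gained a promoter summit and ci a locus summit, and without replicate 1, hh lost its own. With the nearest TSS required, 6 of the 10 genes kept a locus summit and 32 of the 48 summits remained, and with the gaps to neighbouring genes included, chosen after seeing the data, there were 67. Matches in both replicates were 33 of 48 within 50 bp and 48 within 200 bp. Per gene, requiring the nearest TSS lowered the count from 13 to 5 at fz, from 6 to 3 at arr and from 5 to 3 at ptc, and the hh, smo and arm loci lost their only summit. The other summary counts of these settings stayed within 1.5 times. No paired analysis was possible because the samples form 1 group. Read depth is unknown, so absence of a summit cannot be separated from lack of reads.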

Other observations

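Short sequences bound by factors of these pathways or of the embryo were sought within 100 bp of the 48 summits, on both strands, as exact letters. The core ATCAAAG of the Pangolin site was present at 2 summits (4.17%, beside 3.75% of all IDR-thresholded summits), the strongest ptc summit and a fz2 summit of signal 203.4. The core ACCACCC of the Ci site was present at none (1.01% of all). The GAGA factor core GAGAG was present at 12 (25.0%, beside 18.2%), of which 5 were at fz, 3 at fz2, 3 at nkd and 1 at arr. Neither the DREF site TATCGATA nor the Zelda site CAGGTAG was present at any of the 48 (2.86% and 0.715% of all). A match to these letters is a description and not a binding site, and its absence says nothing of the factor.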
